A study of Mus musculus with 71 samples.

Results

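Wild-type (WT) colon was compared with WT small intestine across all genes, in bulk RNA-sequencing libraries of whole tissue. Libraries were placed in the groups by their tissue and genotype labels alone. This gave 6 WT colon and 7 WT small intestine libraries, 13 of the 71 samples of the series. The comparison itself was chosen with earlier results of these data known. The series was made to study Btnl2, a butyrophilin-like gene, in γδ intraepithelial lymphocytes (IELs), the T cells that lie between the cells of the gut lining, and it also holds libraries of sorted γδ IELs and of isolated intestinal epithelial cells (IECs). All 13 libraries came from C57BL/6 mice, and no treatment is named for them. Their labels carry the code YNG and no age in numbers, and the methods of the study describe female littermates from crosses of heterozygous mice. Where along the colon or the small intestine each piece was cut is not stated, and nothing in the labels links a colon library to a small intestine library of the same mouse. Beside these 13 libraries, 7 Btnl2-KO colon and 7 Btnl2-KO small intestine libraries of the same strain were used to repeat the tissue comparison. In the Btnl2-KO mice, a LacZ reporter and a selection cassette interrupt the gene from its first codon, which gives a null allele in every cell. The 8 WT libraries of isolated IECs (3 of duodenum, 3 of jejunum and 2 of ileum) served only to show the level of a few genes along the small intestine.

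The small intestine digests food and absorbs fat, sugar, peptides, bile acids and vitamins through tall absorptive enterocytes on villi, and Paneth cells at the base of its crypts release antimicrobial peptides. The colon has no villi and normally few or no Paneth cells, takes up salt and water, uses short-chain fatty acids made by bacteria, and is covered by a thick mucus layer. The identity of each region along the gut is held by transcription factors, among them the HOX genes, which lie in the clusters HoxA to HoxD and are used in an order along the body that follows their order in the cluster.

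Total counts per library were 14091286 to 21708721 in colon and 15840653 to 19359450 in small intestine. The first principal component of log2 expression carried 73.1% of the variance and separated all colon from all small intestine libraries. Marker genes of the gut wall were present in both tissues. Epcam, the adhesion molecule of epithelial cells, was at 1152, 1280.4 and 1384 CPM (counts scaled to a library total of 1000000) in colon and 1039, 1528 and 2234 CPM in small intestine, where the 3 values are the lowest, the median and the highest library, as they are throughout. Myh11, the myosin of smooth muscle, was at 1518, 1660.1 and 1993 CPM and 1585, 2019 and 2597 CPM, so that both epithelium and muscle were sampled in every library, and neither gene was called different between the tissues. Because these are pieces of whole gut wall, fewer cells of a type and less RNA per cell of that type cannot be told apart in any of the results.

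Some libraries stood apart from their group, and the results that turn on 1 or 2 of them are given with and without them. Small intestine libraries 964947 and 964948 held 880.1 and 1710.3 CPM of Car1, a carbonic anhydrase of colon enterocytes, against 0.0512 to 0.640 CPM in the other 5 small intestine libraries and 597 to 870.2 CPM in colon. The same 2 libraries held Aqp8, a water channel of colon enterocytes, at 11.9 and 29.4 CPM and low levels of Hoxa9 and Hoxa10, while Hoxb13, a HOX gene of the hindgut, was at 0.0523 and 0.0615 CPM there. Small intestine library 964950 held genes of the upper small intestine: Gata4, a transcription factor of duodenum and jejunum, was at 87.1 CPM, and Lct, the lactase gene, at 424 CPM, against 0.175 to 15.7 and 0.409 to 8.61 CPM in the other small intestine libraries. In isolated IECs, which were normalised separately, Gata4 had mean levels of 179, 127 and 34.2 CPM and Lct of 952, 474 and 43.5 CPM in duodenum, jejunum and ileum. The ileal genes ran the other way, with Fabp6 at 110.2 CPM in library 964950 and 1219 to 2849 CPM in the other 6, and at 2.44, 11.3 and 614 CPM in the IECs of the 3 segments. Fabp6 was thus high and Gata4 low in most of the small intestine libraries. Colon was therefore compared with these pieces, in which duodenum and jejunum may be little represented. Colon library 964932 held 7 enzymes of pancreas acinar cells, among them Ctrb1 and Prss2, at a summed 846 CPM, against 0.409 to 1.53 CPM in the other 12 libraries. The heat map of genes by library shows these values. What made these libraries differ was not tested.

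**Figure D1:**
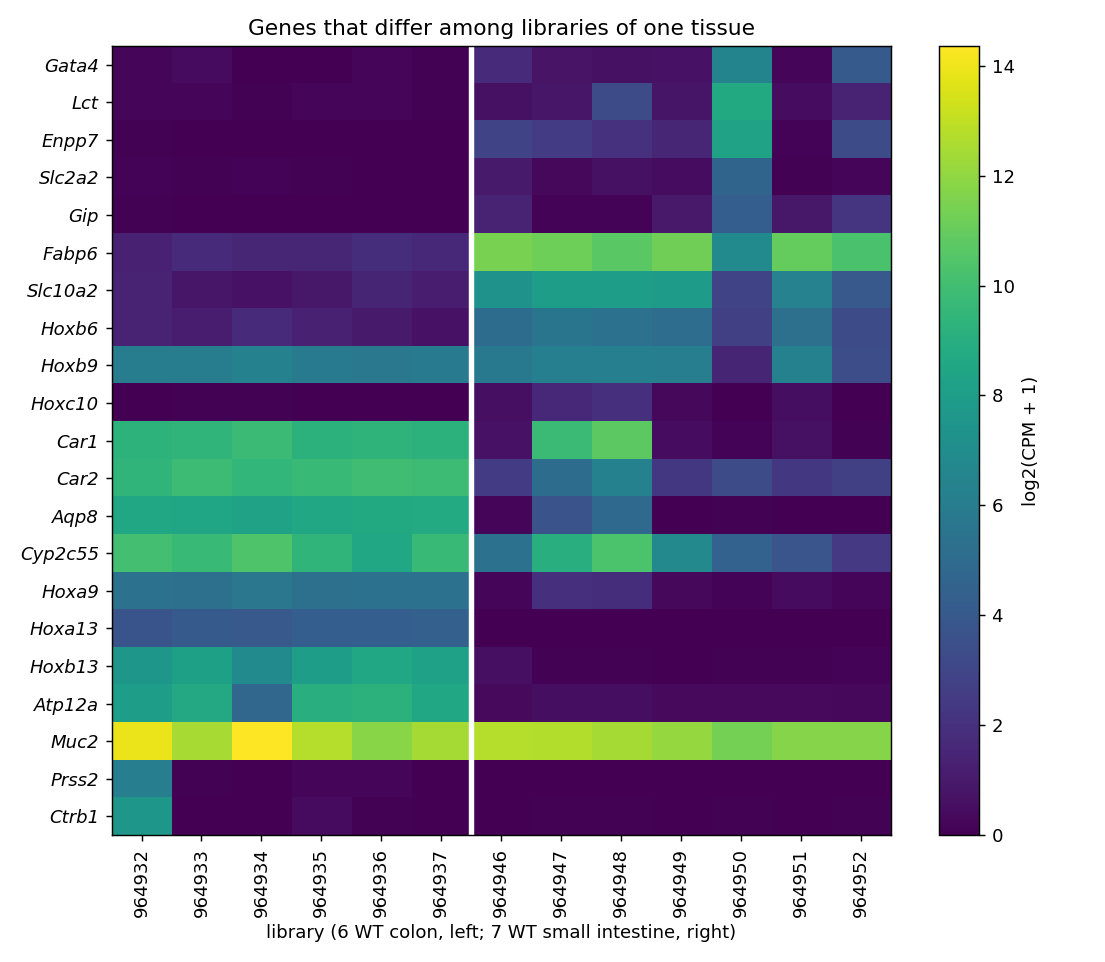
Heat map of log2(CPM + 1) for 21 genes (rows) in the 13 WT libraries (columns; colon left of the white line, small intestine right). Gata4, Lct and Enpp7 are high in small intestine library 964950, Car1 and Cyp2c55 are at colon levels in 964947 and 964948, and Prss2 and Ctrb1 are read in colon library 964932.

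Of 15162 genes with enough counts to test, 1814 (12%) were called higher in colon and 2371 (15.6%) higher in small intestine, and 10977 were not called, so that 27.6% were called in either direction. A call needed an adjusted p (Benjamini-Hochberg, edgeR quasi-likelihood test) under 0.05 and a fold change over 1.5. All log2 fold changes are colon minus small intestine, so that positive values are higher in colon, and their median over all tested genes was -0.02. The SE printed with them is the size of the log2 fold change divided by the square root of the F value of the test. It is not a fitted standard error and is approximate, above all for genes near 0 in a tissue. More than 10-fold differences were found for 149 genes higher in colon and 248 higher in small intestine. The 6 colon and 7 small intestine libraries did not overlap for 3749 tested genes (24.7%), among them 1377 of those called higher in colon and 1403 of those called higher in small intestine.

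HOX genes were called in both directions. Of 39 HOX genes, 32 were tested, with 13 called higher in colon, 14 higher in small intestine and 5 not called, and a median log2 fold change of -0.003. The split followed the cluster. In HoxA, 9 of 11 tested genes were higher in colon and none in small intestine. In HoxC, all 5 tested genes were higher in small intestine, and in HoxB 7 of 9 were, with Hoxb13 as the only member higher in colon. In HoxD, 3 of 7 were higher in colon and 2 in small intestine. By position in the cluster, 8 of the 11 tested genes of paralogue groups 9 to 13 were higher in colon and 1 in small intestine, against 5 and 13 of the 21 in groups 1 to 8. These counts leave out genes that were not tested: 5 of 9 HoxC genes and 11 of 16 genes of groups 9 to 13 passed the count minimum. A gene near 0 in one tissue passed it only through the other. The tested HoxC genes had colon medians of 0 to 0.441 CPM, so that their side was largely set by the minimum.

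Hoxb13 (Entrez 15408) was at 113, 276 and 380.3 CPM in colon and at 0, 0.0584 and 0.498 CPM in small intestine, a log2 fold change of 11.11 ± 0.45 (SE, adjusted p = 1.79e-10). Hoxa13 (Entrez 15398), which is needed to form the hindgut, was at 12.1, 17.1 and 19.9 CPM in colon and had no count in any small intestine library, which makes it at least 95.2-fold higher in colon, with the floor set at 3 counts per library. Hoxd13 was at 4.77, 13.3 and 63.3 CPM in colon, where the libraries differed widely, with only 2 counts in all small intestine libraries, a ratio of 1310-fold (95% counting interval 362 to 10800). Colon library 964936 held 63.3 CPM of it, and without that library the ratio was 657-fold (95% counting interval 181 to 5430). The 3 genes closest to the 5′ end of their clusters were therefore read in every colon library and at or close to 0 in every small intestine library, including 964947 and 964948.

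Hoxa10 was at 43.9, 47.3 and 56.7 CPM in colon and 0, 0 and 1.54 CPM in small intestine (6.73 ± 0.62 (SE, adjusted p = 7.08e-07)), and its highest small intestine values were those of libraries 964947 and 964948, without which the log2 fold change was 11.32. Hoxa9, at 37.7, 41.3 and 51.3 CPM and 0.114, 0.230 and 3.03 CPM, gave 5.41 ± 0.55 (SE, adjusted p = 2.08e-06) and 7.52 without them. The groups did not overlap for either gene, nor for Hoxa11 (5.69 ± 0.57 (SE, adjusted p = 1.61e-06), and 9.89 without these libraries). Hoxa7 at 22.1, 24.2 and 36.2 CPM in colon and 1.84, 3.41 and 4.43 CPM in small intestine and Hoxa5 at 14.4, 22.4 and 25.4 and 3.91, 5.72 and 7.17 CPM were read in both tissues, higher in colon by 2.98 and 1.94 on the log2 scale. Non-coding RNAs of the HoxA cluster were higher in colon as well. Hottip, which lies beyond Hoxa13, was at 32.9, 40.9 and 48.6 CPM in colon with 2 counts in all small intestine libraries, a ratio of 2490-fold (95% counting interval 688 to 20500). Hoxa11os, the antisense transcript of Hoxa11, was at 116, 140.3 and 152 CPM and 0, 0 and 0.307 CPM, a log2 fold change of 10.73 ± 0.33 (SE, adjusted p = 1.71e-11), but its reads may not be told apart from those of Hoxa11. The labels and the methods of the study name different library kits, so that whether the strand was kept is not settled.

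In the other direction, Hoxc8 was at 16.1, 23.5 and 42.8 CPM in small intestine and 0, 0.0801 and 0.179 CPM in colon (-8.17 ± 0.39 (SE, adjusted p = 1.00e-09)). Hoxc6 was at 11.2, 15.6 and 20.6 CPM and 0, 0.0298 and 0.278 CPM (-7.37 ± 0.43 (SE, adjusted p = 7.03e-09)). Both lay well above colon in each small intestine library. Hoxb6, at 5.67, 33.6 and 46.9 CPM against 0.624, 1.29 and 2.38 CPM (-4.42 ± 0.51 (SE, adjusted p = 7.23e-06)), and Hoxb5, at 7.55, 23.98 and 26.6 CPM against 3.26, 3.93 and 4.71 CPM (-2.33 ± 0.28 (SE, adjusted p = 1.06e-05)), were lowest in small intestine library 964950 and still did not overlap with colon. Without libraries 964950 and 964952 they were at -4.81 and -2.62. Hoxb9 was not called: it was at 51.8, 61.6 and 79.1 CPM in colon and 1.83, 69.6 and 77.4 CPM in small intestine (0.30 ± 0.55 (SE, adjusted p = 0.682)), with 1.83 and 9.48 CPM in libraries 964950 and 964952. In isolated IECs it was at 0.0865, 0.534 and 16.8 CPM in duodenum, jejunum and ileum, and without libraries 964950 and 964952 its log2 fold change was -0.15 (adjusted p = 0.336).

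**Figure D2:**
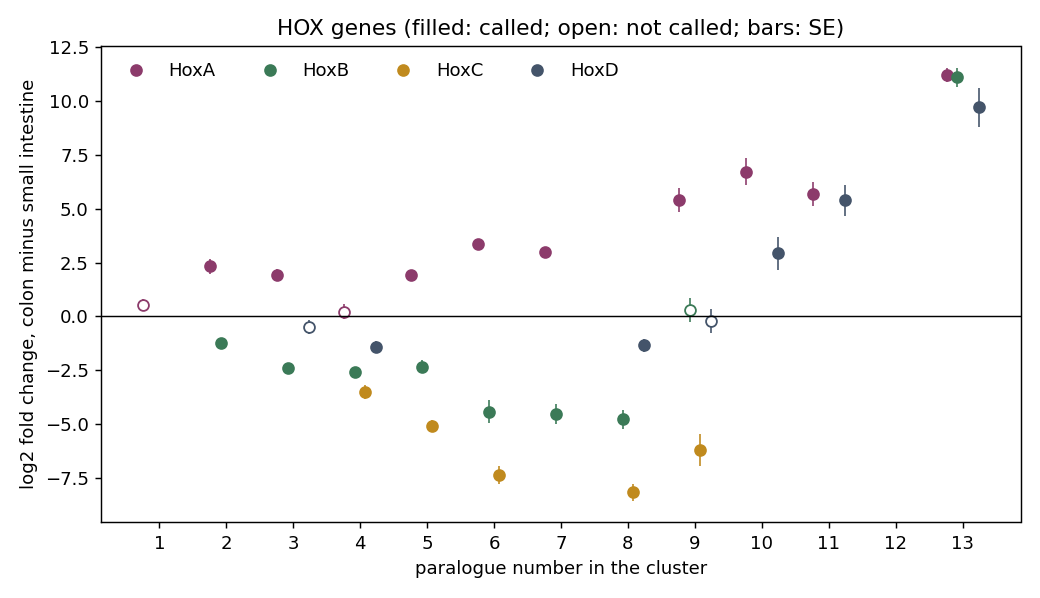
Log2 fold change, colon minus small intestine, of the 32 tested HOX genes (y axis) by paralogue number in the cluster (x axis). Colours give the cluster, filled points were called, open points were not, and bars are the approximate SE, derived from the F value of the test. HoxA genes lie above 0, all 5 HoxC genes below it, and HoxB genes below it up to Hoxb8 and above it at Hoxb13; the points for Hoxa13 and Hoxd13 are fitted values that depend on near-zero counts in small intestine.

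Among 20 tested regional transcription factors outside the HOX clusters, 4 were called higher in colon and 11 higher in small intestine, against 12% and 15.6% of all tested genes. The median log2 fold change of the 20 was -0.79. Klf4, a factor of surface and goblet cells, was at 559.7, 682 and 741 CPM in colon and 107, 209.9 and 478 CPM in small intestine (1.48 ± 0.30 (SE, adjusted p = 0.00108)). Its groups did not overlap. Gata5 was at 50.2, 70.2 and 135 CPM in small intestine and 0.390, 0.671 and 0.929 CPM in colon (-6.94 ± 0.31 (SE, adjusted p = 4.59e-10)), the largest log2 fold change of the 20. Maf, a regulator of enterocyte genes, was at 121, 311 and 322 CPM against 10.1, 17.4 and 23.7 CPM (-3.89 ± 0.28 (SE, adjusted p = 5.29e-08)). Hnf4g, a nuclear receptor of villus enterocytes, was at 161, 277 and 347 CPM against 44.4, 51.9 and 60.5 CPM (-2.32 ± 0.19 (SE, adjusted p = 1.98e-07)). Isx, which represses retinoid uptake genes, was at 64.9, 113 and 142 CPM against 1.08, 7.16 and 38.5 CPM (-3.13 ± 0.58 (SE, adjusted p = 4.68e-04)). Each of them was higher in all 7 small intestine libraries than in any colon library. Their close relatives Gata6 (-0.18) and Hnf4a (-0.20), with adjusted p of 0.158 and 0.124, were not called. The caudal factors gave small differences of opposite sign: Cdx1 was at 182, 194 and 222 CPM in colon and 97.8, 132 and 183 CPM in small intestine (0.59 ± 0.12 (SE, adjusted p = 9.05e-04)), at the edge of the fold threshold and below it without colon library 964934 or 964936 or small intestine library 964948, 964949 or 964950 (0.53 to 0.57). Cdx2 was at 40.9, 86.03 and 179 and 168, 193 and 229 CPM (-1.08 ± 0.25 (SE, adjusted p = 0.00234)).

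Of 22 tested genes of fat absorption and chylomicron assembly, 19 were called higher in small intestine, 2 higher in colon and 1 was not called, with a median log2 fold change of -3.61, against 15.6% of all tested genes called in that direction. Apoa1, an apolipoprotein of chylomicrons and HDL, was at 196, 2467 and 3612 CPM in small intestine and 0.278, 0.515 and 1.37 CPM in colon (-11.52 ± 0.93 (SE, adjusted p = 2.05e-07)). Npc1l1, the cholesterol uptake transporter, was at 144, 579.7 and 702 CPM against 0.139, 0.385 and 0.775 CPM (-10.16 ± 0.58 (SE, adjusted p = 6.15e-09)). The steps that rebuild and load fat moved with them. Mttp, which loads lipid onto apolipoprotein B, was at 228, 374 and 871 CPM against 2.17, 3.23 and 3.87 CPM (-7.18 ± 0.37 (SE, adjusted p = 2.02e-09)). Mogat2, which rebuilds diglycerides, was at 55.2, 138 and 206 CPM against 0.562, 0.758 and 2.68 CPM (-6.80 ± 0.46 (SE, adjusted p = 2.96e-08)). Apob itself was at 335, 1455 and 2454 CPM against 108, 141 and 158 CPM (-3.40 ± 0.42 (SE, adjusted p = 1.21e-05)). None of these 5 genes overlapped between the tissues. The small intestine libraries spread widely for the fatty acid binding proteins, with Fabp1 at 0.759, 6.39 and 84.1 CPM against 0, 0.0347 and 0.119 CPM (-8.89 ± 1.47 (SE, adjusted p = 1.93e-04)) and Fabp2 at 105, 1183 and 2005 CPM against 14.7, 43.3 and 229 CPM (-3.81 ± 0.76 (SE, adjusted p = 9.02e-04)), and Fabp2 overlapped. Cd36, a fatty acid translocase that other tissues also use, was not called, at 13.9, 35.3 and 50.2 CPM and 15.4, 24.8 and 38.1 CPM (-0.49 ± 0.25 (SE, adjusted p = 0.127)), but was called without small intestine library 964946 (-0.63). The 2 members higher in colon were Plin2, the coat protein of lipid droplets, at 62.5, 95.6 and 151 CPM in colon and 41.4, 46.1 and 62.1 CPM in small intestine (1.04 ± 0.16 (SE, adjusted p = 1.39e-04)). Scarb1, an HDL receptor, was at 22.2, 27.2 and 30.1 CPM and 10.4, 13.3 and 15.1 CPM (1.09 ± 0.10 (SE, adjusted p = 8.22e-07)).

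All 9 tested genes of disaccharidases and sugar handling were higher in small intestine, with a median log2 fold change of -2.89, and none overlapped between the tissues. Across all tested genes, 15.6% were called higher in small intestine and 24.7% did not overlap. Sis, the sucrase-isomaltase of the brush border, was at 402, 912 and 1209 CPM against 0.375, 0.640 and 0.894 CPM in colon (-10.31 ± 0.38 (SE, adjusted p = 7.83e-11)). The related maltase Mgam was read in both tissues, at 788, 1033 and 1449 CPM and 197, 245 and 354 CPM (-1.99 ± 0.17 (SE, adjusted p = 3.96e-07)), as was the sodium-glucose transporter Slc5a1, at 200.3, 585 and 991 CPM and 112, 145 and 180.05 CPM (-2.05 ± 0.31 (SE, adjusted p = 7.77e-05)). G6pc, which releases free glucose from the cell, was at 1.69, 5.83 and 10.7 CPM in small intestine with no count in any colon library, at least 36.5-fold higher. Lct and Slc2a2, the basolateral glucose transporter, did not pass the count minimum, since library 964950 alone held high levels (424 and 23.9 CPM).

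Of 17 tested genes of protein digestion and of peptide and amino acid uptake, 15 were higher in small intestine, against 15.6% of all tested genes. In this list 1 gene was higher in colon and 1 was not called, with a median of -2.20. Anpep, an aminopeptidase of the brush border, was at 949, 5847 and 7143 CPM in small intestine and 16.4, 26.7 and 27.8 CPM in colon (-7.67 ± 0.49 (SE, adjusted p = 1.99e-08)). Slc6a19, the main transporter of neutral amino acids, was at 12.1, 218 and 399 CPM against 0.999, 1.25 and 1.61 CPM (-7.28 ± 0.84 (SE, adjusted p = 7.31e-06)). Both genes were at their lowest small intestine level well above every colon library. The peptide transporter Slc15a1 was not called: it was at 38.7, 314 and 374 CPM and 27.5, 133 and 235 CPM (-0.73 ± 0.55 (SE, adjusted p = 0.292)), and the tissues overlapped. Slc36a1, a proton-coupled transporter of small amino acids, was the member higher in colon, at 49.8, 131 and 264 CPM against 33.3, 42.1 and 101 CPM (1.47 ± 0.34 (SE, adjusted p = 0.00278)).

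The 6 tested genes of bile acid uptake and signalling were all higher in small intestine and did not overlap with colon, with a median log2 fold change of -8.33. The shares over all tested genes were 15.6% called higher in small intestine and 24.7% without overlap. The bile acid genes follow the path of a bile acid through an ileal enterocyte. Slc10a2, which takes bile acids in from the lumen, was at 6.70, 156 and 263 CPM in small intestine and 0.596, 1.04 and 1.76 CPM in colon (-6.92 ± 0.89 (SE, adjusted p = 1.88e-05)). Fabp6, which binds them in the cytosol, was at 110.2, 1969.8 and 2849 CPM against 1.52, 2.01 and 2.75 CPM (-9.75 ± 0.69 (SE, adjusted p = 5.20e-08)). Both chains of the basolateral exporter, Slc51a and Slc51b, gave -10.38 ± 0.50 (SE, adjusted p = 9.30e-10) and -4.42 ± 0.34 (SE, adjusted p = 1.39e-07). The bile acid receptor Nr1h4 was read in both tissues, at 65.2, 149.5 and 184 CPM and 33.8, 40.7 and 43.4 CPM (-1.68 ± 0.22 (SE, adjusted p = 2.76e-05)), while its target Fgf15, the hormone that tells the liver to stop bile acid synthesis, was at 3.68, 30.2 and 149.9 CPM in small intestine with 1 count in all colon libraries, a ratio of 4120-fold (95% counting interval 740 to 163000). The highest Fgf15 value was that of library 964946, without which the ratio was 2540-fold (95% counting interval 455 to 100000), and without colon library 964932, which held the count, it was at least 238-fold higher in small intestine. Within the small intestine group, library 964950 was lowest for Fabp6 and Slc10a2 (110.2 and 6.70 CPM), and without libraries 964950 and 964952 their log2 fold changes were -10.07 and -7.38.

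The region just before the transcription start is shown for 5 genes. Sis, Lct and Fabp6 are textbook targets of factors of these families and Slc26a3, a chloride-bicarbonate exchanger, and Aqp8, both described below, were higher in colon. Sis, Fabp6, Slc26a3 and Aqp8 were called different between the tissues, whereas Lct did not pass the count minimum. Sequences are the 250 bases upstream of the start from RefSeq on build GRCm38.p6, written 5′ to 3′ along the gene. Capitals mark every exact match, on either strand, to the core motifs TTTATG for CDX factors, GTTAAT for HNF1, CAAAGT for HNF4 and AGATAA for the family of Gata4. Sis lies on the minus strand at chr3:72967864-72968113, Lct on the minus strand at chr1:128328319-128328568, Fabp6 on the minus strand at chr11:43601563-43601812, Slc26a3 on the plus strand at chr12:31437969-31438218 and Aqp8 on the plus strand at chr7:123462044-123462293.
Sis: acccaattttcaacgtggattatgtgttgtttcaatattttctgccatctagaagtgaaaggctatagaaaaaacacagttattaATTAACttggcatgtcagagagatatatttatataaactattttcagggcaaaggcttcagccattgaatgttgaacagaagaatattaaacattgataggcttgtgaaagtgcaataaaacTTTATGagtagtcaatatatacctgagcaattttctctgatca
Lct: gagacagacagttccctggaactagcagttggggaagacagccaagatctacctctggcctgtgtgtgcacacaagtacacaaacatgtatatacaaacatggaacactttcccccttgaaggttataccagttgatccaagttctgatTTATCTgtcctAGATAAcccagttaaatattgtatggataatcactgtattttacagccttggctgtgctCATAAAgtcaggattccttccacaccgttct
Fabp6: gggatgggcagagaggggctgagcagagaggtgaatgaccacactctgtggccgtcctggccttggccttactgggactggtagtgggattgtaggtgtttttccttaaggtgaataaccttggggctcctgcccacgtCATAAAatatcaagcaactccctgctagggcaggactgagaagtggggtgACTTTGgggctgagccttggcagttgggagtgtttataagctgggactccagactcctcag
Slc26a3: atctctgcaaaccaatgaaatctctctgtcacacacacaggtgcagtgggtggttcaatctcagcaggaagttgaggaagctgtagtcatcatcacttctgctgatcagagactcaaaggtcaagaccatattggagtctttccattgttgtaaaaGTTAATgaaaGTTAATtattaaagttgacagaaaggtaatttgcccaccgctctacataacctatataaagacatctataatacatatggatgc
Aqp8: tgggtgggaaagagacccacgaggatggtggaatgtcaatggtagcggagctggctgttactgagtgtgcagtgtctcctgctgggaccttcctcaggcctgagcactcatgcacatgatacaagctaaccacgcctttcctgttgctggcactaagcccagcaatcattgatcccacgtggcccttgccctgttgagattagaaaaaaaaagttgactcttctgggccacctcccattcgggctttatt
Counted from the start, Sis holds a CDX match at -43 and an HNF1 match at -165. Lct holds GATA matches at -90 and -101 and a CDX match at -31. Fabp6 holds a CDX match at -111 and an HNF4 match at -61, and Slc26a3 holds HNF1 matches at -94 and -84. None of the 4 motifs is in the Aqp8 window. Such short motifs are common. The CAAAGT core was in 12.6% of 32851 promoters, in 14.6% of those of genes called higher in small intestine, in 10.7% of those called higher in colon and in 10.1% of those tested and not called. The AGATAA core was in 9.99%, 8.34%, 5.53% and 5.93% of the same sets, the TTTATG core in 10.8%, 8.43%, 7.56% and 5.77%, and the GTTAAT core in 6.43%, 5.25%, 5.25% and 4.04%. These shares describe letters in a window, and no binding was measured.

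**Figure D3:**
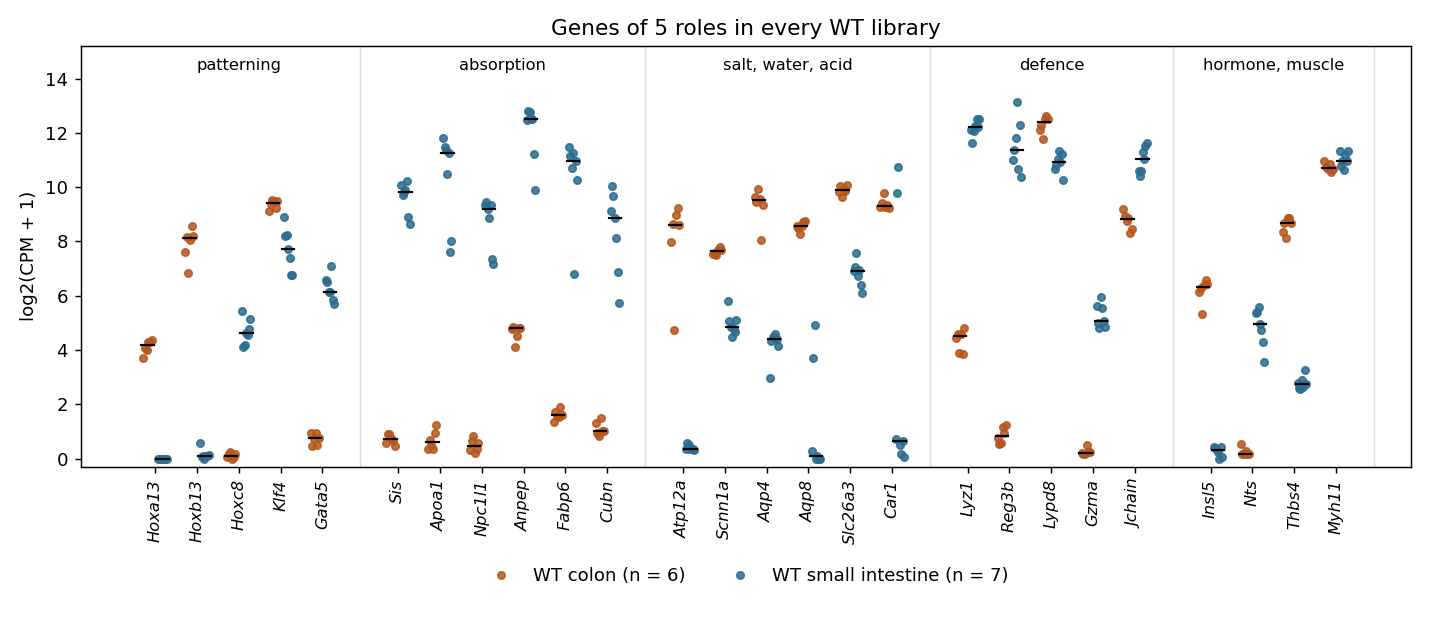
Level of 26 genes in each WT library, as log2(CPM + 1) on the y axis; each point is a library, coloured by tissue (6 colon, 7 small intestine), and lines are group medians. Absorption genes lie high in small intestine and low in colon, the salt and water genes the other way, and 2 small intestine libraries hold Car1 at colon levels.

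Vitamin uptake showed the same side: of 11 tested genes, 9 were higher in small intestine, 1 in colon and 1 was not called (median -2.10), against 15.6% of all tested genes higher in small intestine. Cubn and Amn, which together form the receptor for vitamin B12 bound to intrinsic factor, were at 51.5, 462 and 1049 CPM against 0.775, 1.02 and 1.81 CPM (-8.66 ± 0.76 (SE, adjusted p = 4.47e-07)) and 21.4, 49.7 and 66.2 CPM against 0.489, 0.749 and 0.902 CPM (-5.91 ± 0.34 (SE, adjusted p = 5.88e-09)). Rbp2, the retinol binding protein of enterocytes, gave -2.74 ± 0.81 (SE, adjusted p = 0.0126) and overlapped, with 1.81, 45.6 and 255 CPM in small intestine and 4.41, 11.5 and 19.02 CPM in colon. It was not called by limma-voom (-0.996) or without colon libraries 964932 and 964934 (-2.48). Slc46a1, the proton-coupled folate transporter, was the member higher in colon, at 9.41, 25.01 and 51.5 CPM against 8.40, 10.6 and 14.51 CPM (1.23 ± 0.29 (SE, adjusted p = 0.00309)).

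Iron and calcium genes did not fall on one side, with 2 of 10 called higher in colon, 2 higher in small intestine and 6 not called (median -0.10). Across all tested genes, 12% were called higher in colon and 15.6% higher in small intestine. Trpv6, the calcium channel of the luminal membrane, was at 1.43, 4.63 and 6.99 CPM in colon and 0, 0.0523 and 0.0615 CPM in small intestine (6.47 ± 0.53 (SE, adjusted p = 2.45e-07)). Slc40a1, the iron exporter, was at 105, 237 and 469 CPM and 21.9, 82.3 and 128 CPM (1.74 ± 0.39 (SE, adjusted p = 0.00199)). The calcium binding protein S100g went the other way, at 0.744, 4.41 and 22.3 CPM in small intestine and 0.179, 0.648 and 2.89 CPM in colon (-2.86 ± 0.72 (SE, adjusted p = 0.00461)), and overlapped. Of 14 drug-metabolizing enzymes, 6 were higher in small intestine, 2 in colon and 6 were not called (median -0.93). Cyp3a11, a main drug-oxidizing enzyme, was at 1.40, 29.1 and 130.2 CPM in small intestine with 1 count in all colon libraries, a ratio of 3790-fold (95% counting interval 680 to 150000). Its level was uneven: library 964948 held 130.2 CPM, and without that library the ratio was 2200-fold (95% counting interval 395 to 87000). Without colon library 964932, which held the count, Cyp3a11 was at least 205-fold higher in small intestine. Gstm1, a glutathione transferase, was higher in colon, at 194, 213 and 233 CPM against 47.9, 64.1 and 89.95 CPM (1.75 ± 0.13 (SE, adjusted p = 7.90e-08)). Cyp2c55 was not called, at 376, 847 and 1338 CPM in colon and 4.15, 40.6 and 1236 CPM in small intestine (1.63 ± 1.01 (SE, adjusted p = 0.201)). Its small intestine libraries 964947 and 964948 held 532 and 1236 CPM, and without them it was called higher in colon at 4.55 (adjusted p = 2.80e-04).

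Of 26 tested genes of salt, water and acid-base transport, 14 were called higher in colon, 3 higher in small intestine and 9 were not called, with a median log2 fold change of 0.96, against 12% of all tested genes called higher in colon. Atp12a, the non-gastric proton-potassium pump, was at 25.6, 393 and 603 CPM in colon and 0.256, 0.288 and 0.471 CPM in small intestine (10.06 ± 0.67 (SE, adjusted p = 2.92e-08)), with its lowest colon value in library 964934. The subunits of the epithelial sodium channel followed: Scnn1a was at 182, 197 and 221 CPM against 21.1, 27.8 and 54.6 CPM (2.66 ± 0.18 (SE, adjusted p = 3.75e-08)). Scnn1b was at 4.35, 9.57 and 19.1 CPM against 0, 0 and 0.307 CPM (7.31 ± 0.56 (SE, adjusted p = 1.05e-07)). None of these genes overlapped between the tissues. Aqp4, a water channel, was at 263, 728 and 963 CPM in colon and 6.90, 20.3 and 23.4 CPM in small intestine (5.22 ± 0.32 (SE, adjusted p = 1.29e-08)). The anion exchangers divided by tissue: Slc26a3, which swaps chloride for bicarbonate and is mutated in congenital chloride diarrhoea, was at 799, 950.2 and 1089 CPM in colon and 67.2, 119 and 191 CPM in small intestine (3.02 ± 0.20 (SE, adjusted p = 3.01e-08)), whereas Slc26a6 was at 42.5, 128 and 205 CPM in small intestine and 1.97, 2.46 and 3.02 CPM in colon (-5.52 ± 0.37 (SE, adjusted p = 2.96e-08)). Guanylin peptides switch on chloride secretion. Guca2b, uroguanylin, was higher in small intestine, at 35.4, 103 and 169 CPM against 3.83, 5.21 and 10.1 CPM in colon (-4.08 ± 0.39 (SE, adjusted p = 9.71e-07)), and Guca2a, guanylin, was not called, at 187, 261 and 694 CPM and 175, 417 and 1002 CPM (0.56 ± 0.36 (SE, adjusted p = 0.226)), but was called higher in colon without small intestine library 964946 (0.84).

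Among the carbonic anhydrases, the call of Car1 depended on small intestine libraries 964947 and 964948. Car1 was at 597, 630 and 870.2 CPM in colon and 0.0512, 0.584 and 1710.3 CPM in small intestine and was not called (0.85 ± 1.62 (SE, adjusted p = 0.69)), but without these 2 libraries its log2 fold change was 10.90 (adjusted p = 1.01e-09). With limma-voom and all libraries it was called higher in colon as well (6.11, adjusted p = 0.00901). Aqp8 was called at 5.99 ± 1.196 (SE, adjusted p = 8.93e-04), with 309, 378 and 432 CPM in colon and 0, 0.0572 and 29.4 CPM in small intestine, and was at 12.78 without them. DESeq2 did not call it (3.92, adjusted p = 0.0644). Car2, at 663, 879.96 and 982 CPM in colon and 3.97, 5.48 and 79.7 CPM in small intestine (5.41 ± 0.77 (SE, adjusted p = 4.86e-05)), was at 7.30 without them, and Car4, at 403, 779 and 899.5 CPM and 42.4, 119.96 and 577 CPM (2.16 ± 0.51 (SE, adjusted p = 0.0032)), at 1.87. Aqp8, Car2 and Car4 were called with and without these 2 libraries. The Btnl2-KO small intestine libraries had no such pair: Car1 was at 0, 0.0781 and 0.154 CPM there and 592, 745 and 1235 CPM in Btnl2-KO colon, and Aqp8 at 0, 0 and 0.154 CPM and 332, 383 and 568.02 CPM. Other uneven levels did occur in Btnl2-KO tissue. In small intestine, Lct was at 0.223, 1.40 and 2058 CPM and Gata4 at 0.446, 1.17 and 96.6 CPM. In colon, the pancreas enzyme Ctrb1 was at 0, 0 and 256 CPM.

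Of 10 tested genes of short-chain fatty acid use and ketone synthesis, 4 were higher in colon, 1 in small intestine and 5 were not called (median 0.92), against 12% of all tested genes higher in colon. Acsm3, which activates medium-chain fatty acids and butyrate, was at 201, 268 and 278 CPM in colon and 14.1, 24.4 and 31.6 CPM in small intestine (3.39 ± 0.19 (SE, adjusted p = 4.97e-09)). Slc16a1, the monocarboxylate transporter, was at 289, 447 and 492 CPM and 92.9, 124 and 165 CPM (1.75 ± 0.16 (SE, adjusted p = 6.08e-07)). Neither overlapped between the tissues.

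Paneth cell products marked the small intestine. All 28 tested of 31 α-defensin genes, the peptides that Paneth cells release into the crypt, were called higher in small intestine, and 27 of the 28 did not overlap with colon. Across all tested genes, 15.6% were called that way and 24.7% did not overlap. Genes this low in colon passed the count minimum through small intestine, so that these 2 counts were largely set by that minimum. Counts of the α-defensins summed to 19848 to 62716 CPM in small intestine and 4.17 to 15.7 CPM in colon. Their median log2 fold change was -12.21, or -12.15 with the 7 genes that had no count in colon set at their lower bound. Defa37 and Defa5 were among those 7, at least 10700-fold and 5860-fold higher in small intestine. These genes are near-identical copies, so that the level of each alone is uncertain. The 4 other Paneth cell genes were all higher in small intestine (median -8.47) without overlap. Lyz1, the lysozyme of Paneth cells, was at 3184, 4776 and 5849.6 CPM in small intestine and 13.4, 21.9 and 27.2 CPM in colon (-7.88 ± 0.26 (SE, adjusted p = 3.30e-11)). Mmp7, the protease that activates α-defensins, was at 105, 174 and 339 CPM and 0.0557, 0.143 and 0.417 CPM (-10.12 ± 0.42 (SE, adjusted p = 2.77e-10)). Itln1, a lectin, was at 1301, 1943 and 3985 CPM and 1.17, 3.33 and 10.2 CPM (-9.07 ± 0.63 (SE, adjusted p = 4.11e-08)). Lyz2, the lysozyme of macrophages, was not called (-0.17 ± 0.23 (SE, adjusted p = 0.563)).

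Other antimicrobial proteins split, with 8 of 15 tested genes higher in small intestine, 4 higher in colon and 3 not called (median -1.75). The shares over all tested genes were 15.6% and 12%. Reg3b and Reg3g, lectins that kill or hold back bacteria at the surface, were at 1338, 2668 and 9026 CPM against 0.445, 0.793 and 1.37 CPM (-12.05 ± 0.67 (SE, adjusted p = 4.93e-09)) and 483, 1028 and 4663 CPM against 0.342, 0.461 and 0.624 CPM (-11.80 ± 0.74 (SE, adjusted p = 1.57e-08)). Reg3a was at 17.4, 30.7 and 45.1 CPM with 1 count in all colon libraries, a ratio of 3230-fold (95% counting interval 579 to 128000), or at least 168-fold higher without colon library 964936, which held the count. The 3 genes were near 0 in each colon library, and reads of such close relatives can be split between them. Nos2, which makes nitric oxide, was at 33.7, 125 and 294 CPM against 0.766, 1.27 and 2.30 CPM (-6.65 ± 0.49 (SE, adjusted p = 7.18e-08)). Duox2, an oxidase of the epithelial surface, was at 129.8, 282 and 1507 CPM against 83.9, 111 and 128 CPM (-2.06 ± 0.51 (SE, adjusted p = 0.00438)). In colon, Lypd8, which keeps flagellated bacteria from the surface, was at 3519, 5427 and 6302 CPM against 1216, 1924 and 2578 CPM in small intestine (1.41 ± 0.19 (SE, adjusted p = 2.50e-05)). Nox1, the superoxide-forming oxidase of colon epithelium, was at 34.5, 44.7 and 49.6 CPM against 2.06, 12.5 and 15.3 CPM (2.22 ± 0.37 (SE, adjusted p = 2.10e-04)). Saa1, a serum amyloid A, was at 213, 730.5 and 1071 CPM against 2.80, 30.9 and 164 CPM (3.84 ± 0.82 (SE, adjusted p = 0.00152)).

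**Figure D4:**
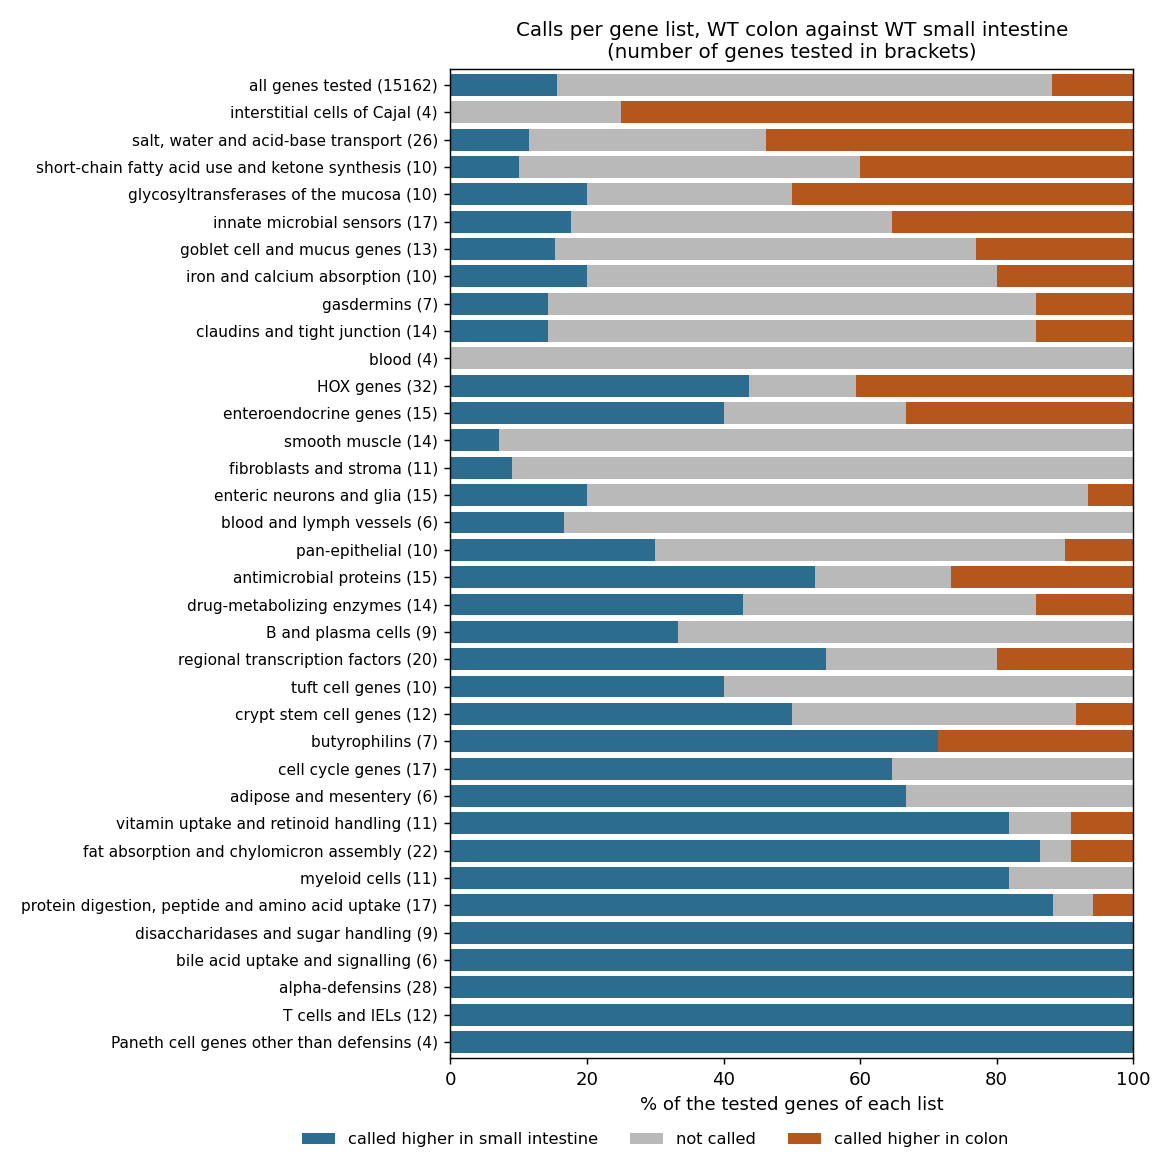
Percent of the tested genes of each of 35 lists (x axis; genes tested in brackets) called higher in small intestine, not called, or called higher in colon, with all genes tested as the top bar. Paneth cell genes, T cell and IEL genes, α-defensins, bile acid and sugar genes were called higher in small intestine without exception, while salt transport, short-chain fatty acid use and markers of interstitial cells of Cajal stand at the colon end.

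Of 13 tested goblet cell and mucus genes, 3 were called higher in colon, 2 higher in small intestine and 8 were not called (median 0.57), beside 27.6% of all tested genes called in either direction. Muc1, a membrane mucin, was at 9.18, 10.7 and 12.9 CPM in colon and 0.307, 0.584 and 1.26 CPM in small intestine (4.17 ± 0.25 (SE, adjusted p = 8.95e-09)). Muc4 was at 123, 232 and 535 CPM and 41.9, 79.5 and 113 CPM (1.91 ± 0.32 (SE, adjusted p = 2.06e-04)). Neither overlapped between the tissues. Muc2, the gel-forming mucin of the gut, was called at 1.04 ± 0.39 (SE, adjusted p = 0.0408), with 3645, 6309 and 21010.4 CPM and 2598, 4301 and 6919.9 CPM. That call rested on colon libraries 964932 and 964934, which held 15522 and 21010.4 CPM, and without them the log2 fold change was 0.21 (adjusted p = 0.589). Leaving out any one of small intestine libraries 964949 to 964952 ended the call as well (0.94 to 1.02). Fcgbp, which is linked to Muc2 in mucus, was not called, at 6226, 7289 and 11692 CPM and 2156, 5928 and 7460.2 CPM (0.66 ± 0.27 (SE, adjusted p = 0.0531)), but was called higher in colon on leaving out small intestine library 964946 (0.72), 964947 (0.78) or 964948 (0.73). With all libraries, DESeq2 (0.66, adjusted p = 0.0223) and upper quartile scaling (0.67, adjusted p = 0.0415) called it higher in colon as well. Ang4, an antibacterial ribonuclease of goblet and Paneth cells, was at 342, 554 and 3668 CPM in small intestine and 3.79, 121 and 506 CPM in colon (-2.96 ± 1.02 (SE, adjusted p = 0.0271)), with wide spread in both tissues. Its call ended without colon library 964933 (-2.74) or small intestine library 964946 (-2.48) or 964952 (-2.59).

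Glycosyltransferases build the sugar chains on mucosal proteins and lipids. Of 10 tested, 5 were higher in colon, 2 in small intestine and 3 were not called (median 1.10), against 12% and 15.6% of all tested genes higher in colon and in small intestine. B3galt5, a galactosyltransferase, was at 475, 609.9 and 859 CPM in colon and 3.06, 5.18 and 13.5 CPM in small intestine (6.46 ± 0.39 (SE, adjusted p = 1.11e-08)). St6galnac6, a sialyltransferase, was at 629, 694 and 876 CPM and 9.39, 16.8 and 34.4 CPM (5.12 ± 0.30 (SE, adjusted p = 9.11e-09)). Fut2, which adds the terminal fucose of secreted blood group antigens, was at 135, 157 and 205 CPM and 3.21, 13.7 and 107 CPM (2.72 ± 0.65 (SE, adjusted p = 0.00318)). All 3 were higher in every colon library than in any small intestine library. Related genes outside the list were among the widest gaps of all genes: Abo, the blood group transferase, was at 8.57, 10.7 and 12.04 CPM in colon with 1 count in all small intestine libraries, a ratio of 1290-fold (95% counting interval 232 to 51100), or at least 61.00-fold higher without small intestine library 964948, which held the count. The fucosyltransferase Fut9 was at 10.2, 44.7 and 52.7 CPM with 3 counts in small intestine, a ratio of 1500-fold (95% counting interval 512 to 7270).

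Of 14 claudins and other tight junction genes, 2 were higher in colon, 2 higher in small intestine and 10 were not called (median -0.03), a share of calls close to that of all tested genes (27.6%). Cldn8, a sealing claudin of tight epithelia, was at 111, 169 and 193 CPM in colon and 3.78, 13.6 and 17.9 CPM in small intestine (3.71 ± 0.32 (SE, adjusted p = 3.39e-07)). Cldn15, which forms cation pores, was at 196, 223 and 307 CPM in small intestine and 39.7, 71.4 and 158 CPM in colon (-1.49 ± 0.26 (SE, adjusted p = 3.14e-04)). Neither overlapped between the tissues. Of 17 innate microbial sensors, 6 were higher in colon, 3 in small intestine and 8 were not called (median 0.02). Tlr1, a receptor for bacterial lipopeptides, was at 66.2, 92.02 and 104 CPM in colon and 10.95, 18.9 and 31.2 CPM in small intestine (2.06 ± 0.21 (SE, adjusted p = 1.75e-06)). Tlr4, the lipopolysaccharide receptor, was at 21.7, 26.9 and 30.4 CPM and 4.69, 10.3 and 12.9 CPM (1.54 ± 0.18 (SE, adjusted p = 9.62e-06)), and the inflammasome cytokine Il18 at 59.8, 102 and 123 CPM and 6.80, 8.48 and 19.9 CPM (3.13 ± 0.27 (SE, adjusted p = 3.39e-07)). Nlrc4, which joins the sensors of flagellin in an inflammasome, ran the other way, at 55.8, 83.3 and 104 CPM in small intestine and 35.5, 38.1 and 42.1 CPM in colon (-1.11 ± 0.13 (SE, adjusted p = 9.59e-06)). Among 7 gasdermins, the pore-forming proteins of inflammatory cell death, 1 was higher in each tissue and 5 were not called. This share of calls was also close to that of all tested genes. Gsdme was the member higher in small intestine, at 27.4, 92.5 and 181 CPM against 5.86, 7.02 and 11.6 CPM (-3.60 ± 0.43 (SE, adjusted p = 9.45e-06)).

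Enteroendocrine genes divided by hormone. Of 15 tested, 5 were higher in colon, 6 in small intestine and 4 were not called (median -0.18), against 27.6% of all tested genes called in either direction. Insl5, a peptide hormone of colon L cells, was at 39.3, 79.9 and 94.98 CPM in colon and 0, 0.246 and 0.356 CPM in small intestine (8.45 ± 0.34 (SE, adjusted p = 1.60e-10)). Pyy, which slows the gut and curbs appetite, was at 41.7, 59.3 and 68.7 CPM and 5.79, 13.2 and 27.4 CPM (1.95 ± 0.29 (SE, adjusted p = 6.86e-05)). Tph1, the rate-limiting enzyme of serotonin synthesis in the gut, was at 22.04, 35.4 and 41.3 CPM and 6.05, 6.90 and 14.7 CPM (1.92 ± 0.23 (SE, adjusted p = 1.15e-05)). The groups did not overlap for any of the 3. Nts, neurotensin, was at 10.7, 29.9 and 46.7 CPM in small intestine and 0.111, 0.130 and 0.440 CPM in colon (-7.24 ± 0.46 (SE, adjusted p = 1.62e-08)). Sct, secretin, was at 6.15, 12.9 and 31.7 CPM and 1.08, 1.53 and 2.32 CPM (-3.55 ± 0.44 (SE, adjusted p = 1.27e-05)). Gcg, the precursor of glucagon-like peptides, was at 45.6, 53.2 and 79.9 CPM in colon and 41.8, 55.7 and 77.1 CPM in small intestine (0.02 ± 0.18 (SE, adjusted p = 0.936)), with overlapping groups.

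In the crypt, 6 of 12 tested stem cell genes were higher in small intestine, 1 in colon and 5 were not called (median -0.66). Across all tested genes, 15.6% were called higher in small intestine. Olfm4, a marker of small intestine crypt base cells in mice, was at 127, 402 and 807 CPM in small intestine and 0, 0.0645 and 0.135 CPM in colon (-12.44 ± 0.59 (SE, adjusted p = 9.30e-10)). Lgr5, the receptor that marks cycling stem cells in both tissues, was at 14.9, 30.7 and 34.7 CPM and 11.4, 13.8 and 14.2 CPM (-1.10 ± 0.16 (SE, adjusted p = 5.61e-05)). Sox9, a factor of crypt progenitors, was the member higher in colon, at 67.1, 84.3 and 97.9 CPM against 39.02, 51.1 and 69.9 CPM (0.69 ± 0.13 (SE, adjusted p = 4.49e-04)). Of 17 cell cycle genes, 11 were called higher in small intestine, 6 were not called and all 17 overlapped between the tissues, with a median of -0.86. In Btnl2-KO tissue none of them was called, and their median was -0.32. The test of a difference between the genotypes, by an interaction term over all 27 whole-tissue libraries, called none of the 17. Of 10 tested tuft cell genes, 4 were higher in small intestine and 6 were not called (median -1.03).

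Genes of T cells and IELs were all higher in small intestine. The 12 members were all tested and called, 9 of them without overlap between the tissues. Across all tested genes, 15.6% were called higher in small intestine and 24.7% did not overlap. The 12 had a median log2 fold change of -2.73, and their summed level was 111 to 208 CPM in small intestine and 11.2 to 22.1 CPM in colon. Gzma, a granzyme of cytotoxic IELs, was at 26.9, 32.2 and 61.6 CPM and 0.111, 0.163 and 0.417 CPM (-7.65 ± 0.32 (SE, adjusted p = 3.17e-10)). Cd8a, a chain of the CD8 co-receptor, was at 8.20, 12.7 and 19.2 CPM and 0.417, 0.891 and 1.46 CPM (-3.83 ± 0.27 (SE, adjusted p = 4.54e-08)). The genes of helper and regulatory T cells had smaller fold changes: Cd4 was at 6.47, 15.9 and 26.9 CPM and 3.10, 5.95 and 7.30 CPM (-1.51 ± 0.31 (SE, adjusted p = 9.68e-04)) and Foxp3 at 0.285, 1.203 and 2.06 CPM and 0.180, 0.296 and 0.334 CPM (-2.16 ± 0.40 (SE, adjusted p = 4.88e-04)), and both overlapped. Plasma cells were read by Jchain, the joining chain of IgA, at 1344, 2096 and 3161 CPM in small intestine and 319, 449 and 592 CPM in colon (-2.30 ± 0.23 (SE, adjusted p = 2.06e-06)). Of 9 tested genes of B cells, plasma cells and IgA transport across the epithelium (Pigr), 3 were higher in small intestine and 6 were not called (median -0.41). Cr2, a complement receptor of follicular B cells, was at 0.417, 8.19 and 15.4 CPM in colon and 0.0711, 0.615 and 17.6 CPM in small intestine, where library 964949 held the highest value. It was not called (1.45), but without library 964949 it was called higher in colon, at 4.05.

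Of 11 myeloid genes, 9 were higher in small intestine and 2 were not called (median -1.08), against 15.6% of all tested genes higher in small intestine. Itgam, the integrin CD11b, was at 18.4, 47.8 and 91.7 CPM in small intestine and 5.996, 8.62 and 13.3 CPM in colon (-2.47 ± 0.34 (SE, adjusted p = 4.30e-05)), without overlap. Both tested mast cell genes were higher in small intestine as well, and Mcpt1, a protease of mucosal mast cells, was at 2.35, 5.12 and 22.4 CPM against 0.147, 0.656 and 1.13 CPM (-3.33 ± 0.57 (SE, adjusted p = 2.61e-04)).

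Of 14 smooth muscle genes, Mylk, myosin light chain kinase, was called higher in small intestine (-1.08 ± 0.12 (SE, adjusted p = 5.33e-06)) and 13 were not called (median -0.29). Mylk was also read in isolated IECs, at mean levels of 158, 188 and 163 CPM in duodenum, jejunum and ileum. Myh11 was at 0.0579, 0.135 and 0.650 CPM there. Of 11 stromal genes, 1 was higher in small intestine and 10 were not called, with Col1a1, a collagen chain, at -0.07 ± 0.16 (SE, adjusted p = 0.759). Of 6 vessel genes, 1 was higher in small intestine and 5 were not called, with Pecam1, an endothelial adhesion molecule, at 0.03 ± 0.10 (SE, adjusted p = 0.826). Of 15 genes of enteric neurons and glia, 3 were higher in small intestine, 1 in colon and 11 were not called (median -0.32). That share of calls was close to the 27.6% of all tested genes called in either direction. Markers linked to interstitial cells of Cajal, the pacemaker cells of gut movement, had 3 of 4 members called higher in colon (median 1.74). Only 2 of the 4 did not overlap between the tissues, and in Btnl2-KO tissue 2 of the 4 were called higher in colon. Thbs4, a matrix protein, was at 279, 412 and 461 CPM in colon and 4.86, 5.74 and 8.70 CPM in small intestine (6.03 ± 0.18 (SE, adjusted p = 1.51e-11)). Ano1, the calcium-gated chloride channel of these cells, was at 210.4, 321 and 364 CPM and 31.2, 42.3 and 58.3 CPM (2.90 ± 0.16 (SE, adjusted p = 5.65e-09)). Etv1, their transcription factor, was not called (-0.16 ± 0.17 (SE, adjusted p = 0.482)). Ano1 and Thbs4 are read in other cells too. Pan-epithelial genes had a median of -0.34, close to those of smooth muscle and of neurons and glia, with 3 of 10 higher in small intestine, 1 in colon and 6 not called. Krt8, a keratin of all lining cells, was not called (-0.31 ± 0.15 (SE, adjusted p = 0.111)), and Vil1, the actin bundler of microvilli, was higher in small intestine (-1.48 ± 0.21 (SE, adjusted p = 5.39e-05)).

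Genes of neighbouring tissues were mostly low. Of the 8 pancreas genes only Cela1 passed the count minimum, and it was higher in colon at 131, 224 and 288 CPM against 2.69, 4.35 and 7.56 CPM (5.49 ± 0.27 (SE, adjusted p = 1.15e-09)), in all 6 colon libraries and not only in 964932. No stomach gene passed the minimum. Of 6 genes of fat tissue, 4 were higher in small intestine and 2 were not called (median -1.69), with a summed 58.2 to 212 CPM in small intestine and 40.8 to 112 CPM in colon, and 2 of the 4 calls were lost on leaving out any one of colon libraries 964933 to 964937 or small intestine libraries 964947 to 964950. The 4 tested blood genes and the 2 tested squamous genes were not called. The 3 tested skeletal muscle genes were higher in small intestine and the 2 tested liver genes higher in colon, where Alb, albumin, was at 1.49, 2.02 and 2.40 CPM against 0, 0 and 0.184 CPM. The part of such tissue in any result was not tested.

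The butyrophilin family, which the study is about, was read on both sides. Of 7 tested members, 5 were higher in small intestine and 2 in colon (median -0.71), against 15.6% and 12% of all tested genes. Btnl2 (Entrez 547431) was at 24.8, 59.03 and 108 CPM in small intestine and 0.676, 1.36 and 2.49 CPM in colon (-5.24 ± 0.40 (SE, adjusted p = 1.08e-07)), without overlap. Btnl1 and Btnl6, which together select IELs with a Vγ7 receptor, were at 62.9, 136 and 175 CPM against 15.96, 25.4 and 43.3 CPM (-2.25 ± 0.26 (SE, adjusted p = 8.48e-06)) and 77.4, 188 and 289.8 CPM against 38.1, 45.1 and 50.8 CPM (-2.11 ± 0.24 (SE, adjusted p = 5.66e-06)). Btn1a1, known from milk fat globules, was higher in colon, at 1.08, 6.04 and 8.88 CPM against 0.114, 0.288 and 0.640 CPM (4.12 ± 0.49 (SE, adjusted p = 8.52e-06)). Reads of these related genes can be split between copies.

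Outside the gene lists, the 12 widest gaps with separated groups were taken in each direction, and 11 of those in small intestine are described. In colon these began with Hottip, given above, and Tgm3, a transglutaminase, at 449, 1921 and 2505 CPM against 0.403, 0.701 and 2.56 CPM in small intestine (10.77 ± 0.55 (SE, adjusted p = 1.89e-09)). They included Hoxa11os, Fut9 and Abo and the genes Best2, a bicarbonate channel of colon goblet cells (8.57 ± 0.55 (SE, adjusted p = 1.98e-08)), Ly6g, a surface protein of neutrophils (8.29 ± 0.66 (SE, adjusted p = 1.69e-07)), Cyp2d34, a member of a multi-copy enzyme family whose reads can be split (8.16 ± 0.57 (SE, adjusted p = 4.43e-08)) and Sycn, a granule protein best known from pancreas (8.13 ± 0.43 (SE, adjusted p = 2.70e-09)). Sycn was at 239, 266 and 380.4 CPM in colon and 0.229, 0.691 and 2.95 CPM in small intestine, and the pancreas-rich library 964932 held 272 CPM. The remaining 3 were 2310079G19Rik, at least 39.00-fold higher, Csta1, a cystatin, at least 15.6-fold higher, and Gm11538, with a ratio of 1020-fold (95% counting interval 283 to 8450), or at least 95.3-fold higher without small intestine library 964950, which held both counts. In small intestine the list began with Enpp7, the alkaline sphingomyelinase of the brush border, at 0.117, 4.66 and 306 CPM with 1 count in colon, a ratio of 5170-fold (95% counting interval 928 to 204000), although library 964950 alone held 306 CPM. Without that library the ratio was 467-fold (95% counting interval 83.4 to 18500), and without colon library 964932, which held the count, Enpp7 was at least 271-fold higher. Habp2, a serine protease, gave a ratio of 1830-fold (95% counting interval 507 to 15100), or at least 191-fold higher without colon library 964932, which held both counts. Slc5a12, a lactate transporter, gave 851-fold (95% counting interval 235 to 7030), and 307-fold (95% counting interval 84.6 to 2540) without library 964950, which held 75.6 CPM. Smlr1 was at least 20.1-fold higher. The remaining 7 were Myrfl (-9.76 ± 0.29 (SE, adjusted p = 1.51e-11)), Prap1 (-9.16 ± 0.60 (SE, adjusted p = 2.54e-08)), Bcl2l15 (-9.08 ± 0.33 (SE, adjusted p = 6.13e-11)), Lgals2, a galectin (-9.001 ± 0.31 (SE, adjusted p = 3.76e-11)), Ocm, oncomodulin (-8.83 ± 0.49 (SE, adjusted p = 4.97e-09)), Pdzk1, a scaffold of brush border transporters (-8.82 ± 0.79 (SE, adjusted p = 5.44e-07)), and Ms4a18 (-8.65 ± 0.46 (SE, adjusted p = 2.97e-09)).

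The tissue comparison was repeated in Btnl2-KO mice, whose 14 libraries share no sample with the 13 WT libraries. Of 14798 genes tested there, 2136 (14.4%) were called higher in colon and 2327 (15.7%) higher in small intestine, with a median log2 fold change of 0.02. Of the 1814 genes called higher in WT colon, 1750 were tested in Btnl2-KO tissue and 1525 were called the same way, which is 84.1% of the WT list and 71.4% of the Btnl2-KO list, and none was called the other way. Of the 2371 called higher in WT small intestine, 2278 were tested, 1788 were called the same way (75.4% and 76.8% of the respective lists) and 4 the other way. Among the named genes, Sis was at -11.69 in Btnl2-KO tissue, Fabp6 at -9.96, Klf4 at 1.09, Slc26a3 at 3.06, and Gzma at -8.48, all on the log2 scale. Of 154 named genes tested in both genotypes, 142 had the same call. Called in WT tissue but not in Btnl2-KO tissue were S100g (-1.28 there), Muc2 (0.78) and Ang4 (-1.80). Called in Btnl2-KO tissue but not in WT tissue were Epcam (-0.72) and Slc15a1 (-1.72), both higher in small intestine, and Cyp2c55 (2.17), Car1 (13.13) and Cr2 (3.54), all higher in colon. The other 4 were called in opposite directions, namely Igf2bp3 (-0.99 in WT and 1.63 in Btnl2-KO tissue), 4930463O16Rik (-1.25 and 3.77), Rmrp (-1.43 and 1.72) and Rpph1 (-1.62 and 1.32). The adjusted p of the interaction was 0.253 for Rmrp and 0.149 for Rpph1.

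Whether a tissue difference itself differed between the genotypes was tested with the same interaction term. Of 15540 genes tested, 3 were called (0.0193%), and 1998 had an unadjusted p under 0.05, where chance alone gives about 1 in 20. In simulated data this test recovered 78% of genes changed 2-fold, so that differences of that size can be missed. Btnl1 had an interaction of -3.52 on the log2 scale (adjusted p = 5.07e-05), with a median of 25.4 CPM in WT colon and 1.93 CPM in Btnl2-KO colon, against 136 and 152 CPM in the small intestine of the 2 genotypes. Igf2bp3, an RNA binding protein of growing tissue, had an interaction of 2.61 (adjusted p = 0.00908), with medians of 11.9 CPM in WT colon, 16.3 CPM in WT small intestine, 30.9 CPM in Btnl2-KO colon and 12.4 CPM in Btnl2-KO small intestine. The unnamed transcript 4930463O16Rik had an interaction of 5.02 (adjusted p = 1.06e-05), with medians of 0.824, 1.31, 10.8 and 1.005 CPM in the same order. DESeq2 and limma-voom also gave an adjusted p under 0.05 for these 3 genes.

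**Figure D5:**
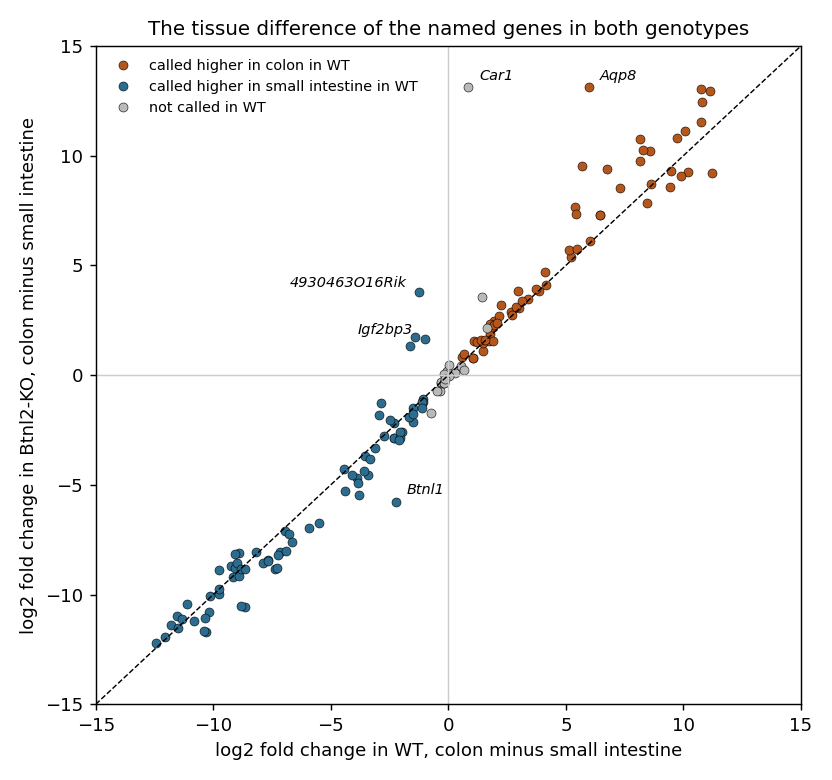
Log2 fold change, colon minus small intestine, of 154 named genes in WT (x axis) and Btnl2-KO tissue (y axis); each point is a gene, coloured by its call in WT, and the dashed line marks equal values. Most points lie near the line, and the labelled genes Car1, Aqp8, Btnl1, Igf2bp3 and 4930463O16Rik lie off it.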

How the data were processed

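RNA of whole colon and small intestine was sequenced by the authors. The authors used ArrayStudio for mapping, on a mouse genome they had customized (GRCm38 per the labels), and RSEM for sense-strand exon reads per gene. The labels name a KAPA stranded mRNA kit and the methods of the study another kit. The deposited values are expected counts, without normalization, for 24475 gene identifiers (24375 matched to a symbol); 17.2% of values were not whole. Here they were rounded, scaled by TMM and tested with edgeR 4.0.16 (quasi-likelihood test, R 4.3.3) on genes with at least 10 counts in 6 WT libraries (7 in Btnl2-KO), the study's detection minimum and thresholds. Identifiers without a symbol stayed in tests and library sizes, with 1.15 to 2.16% of counts.

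CPM are counts scaled to a TMM-adjusted library total of 1000000, set over the 13 WT libraries for WT values, over all 27 whole-tissue libraries for Btnl2-KO values, and apart from both for IECs. Every pair of replicates differed by more than sampling noise (lowest chi-square over its degrees of freedom 5.28). Nothing in the labels says which mouse each library came from, so p-values measure the spread between these libraries, which may be technical. Library sizes set the precision: below 10 counts, counting error is large. Ratios for genes with 1 to 3 counts in a group carry exact binomial 95% intervals, which cover counting error only, and genes with no count in a group are given against a floor of 3 counts per library. Promoters came from RefSeq tables on GRCm38.p6.

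Named genes are Btnl2, members of the 41 lists chosen for their role, size of change or lack of a call, and the 12 largest log2 fold changes per direction outside the lists with separated groups, and genes called for the interaction, except some genes that are not reported here. The comparison, its members and the lists were chosen with earlier results of these data known. Alternatives were DESeq2 1.42.0 (the study's tool), limma-voom with quality weights (limma 3.58.1), glmTreat, relative log expression and upper quartile scaling, no filter, filterByExpr, a fit over all 27 whole-tissue libraries, no fold minimum, and each library left out. On simulated data of this size, the WT tissue test recovered 91% of genes changed 2-fold and 100% of those changed 4-fold. Over 15162 genes, it called 8 of the unchanged genes. The interaction test recovered 78% and 96%, and over 15540 genes it called 6 of the unchanged genes. The changes were placed only in genes with ample counts, so recovery near the count minimum was not measured. Simulated counts were drawn from the model that the test assumes, without libraries that stand apart from their group.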

Additional observations from a re-analysis of the deposited data

Results flagged for a closer look

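Among 156 named genes looked at in both WT groups, 34 values lay far from the rest of their group (Dixon's test at the 95% level, on log2(CPM + 1)), 21 in colon and 13 in small intestine. Chance alone marks about 1 in 20 groups.

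Colon library 964934 held 9 of them. Hoxa9 (51.3 CPM, others 37.7 to 41.6), Hoxa10 (56.7, others 43.9 to 48.0), Hoxa7 (36.2, others 22.1 to 25.5) and Car1 (870 CPM, others 597 to 680) were high there. Atp12a (25.6 CPM, others 249 to 603), Slc15a1 (27.5, others 125 to 235), Insl5 (39.3, others at least 69.5), Best2 (17.5, others 50.04 to 88.9) and Lgr5 (11.4, others 13.3 to 14.2) were low. Colon library 964932, which held pancreas enzymes, had low Hoxa5 (14.4 CPM, others 20.6 to 25.4), high Nts (0.440 CPM, others 0.111 to 0.208), and traces of Fgf15, Cyp3a11 and Enpp7 (0.0489 CPM each) and of Habp2 (0.0978 CPM), all at 0 in the other colon libraries, while Bcl2l15 was at 0 (others 0.119 to 0.187). Colon library 964936 had low Aqp4 (263 CPM, others 645 to 963) and Foxp3 (0.180, others 0.278 to 0.334), high S100g (2.89, others 0.179 to 0.764) and a trace of Reg3a (0.0451 CPM, others 0), and library 964935 had high Gzma (0.417 CPM, others 0.111 to 0.187).

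In small intestine, library 964950 had low Fabp6 (110 CPM, others 1220 to 2850) and high Slc36a1 (101, others 33.3 to 43.0), Enpp7 (306, others 0.117 to 9.07) and Gm11538 (0.114, others 0). Library 964946 had low Aqp4 (6.90 CPM, others 16.8 to 23.4) and Lgr5 (14.9, others 25.9 to 34.7) and high Mcpt1 (22.4, others 2.35 to 6.10), Hoxb13 (0.498, others up to 0.102) and Ly6g (0.782, others up to 0.154). Library 964949 had high Cr2 (17.6 CPM, others 0.0711 to 0.993). Library 964948 had traces of Scnn1b (0.307 CPM, others up to 0.0523) and Abo (0.0615, others 0), and library 964952 had low Ocm (6.71 CPM, others 15.9 to 26.1). The cause of these values was not tested.

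For 3 genes the tissue difference differed between the genotypes by the interaction test (edgeR quasi-likelihood): Btnl1 (-3.52 on the log2 scale), Igf2bp3 (2.61) and 4930463O16Rik (5.02).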

How the results depend on the processing

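No paired analysis was possible because the library numbers in the labels are unique to each library and link no colon to a small intestine sample. Against 1814 genes called higher in colon and 2371 in small intestine, DESeq2 gave 1845 and 2388, limma-voom 1897 and 2299, relative log expression 1826 and 2364, upper quartile scaling 1788 and 2410, no filter 2150 and 2728, filterByExpr 1802 and 2362, and the fit over all whole-tissue libraries 1959 and 2468. Testing against the fold minimum with glmTreat gave 1066 and 1340, and dropping the minimum 3389 and 3726. Leaving out each library gave 1748 to 1865 and 2255 to 2403. Alternatives chosen after seeing the data gave 2014 and 2404 without small intestine libraries 964947 and 964948, 1749 and 2194 without 964950 and 964952, and 1876 and 2430 without colon libraries 964932 and 964934. For the interaction, 2 genes were called with a larger and 1 with a smaller difference in Btnl2-KO tissue, against 8 and 9 with DESeq2 and, for the smaller, 6 with limma-voom.

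Of 3884 values of 156 named genes over 25 settings, 3811 kept direction and call, 15 (6 genes) were called only in the alternative, 43 (10 genes) were no longer called, and 15 (4 genes) changed sign. None of the 4 was called with or without these settings. Gcg was at -0.20 with limma-voom, -0.070 without libraries 964950 and 964952, -0.23 without 964932 and 964934, and -0.078 to 0.095 with each library left out. Hoxb9 was at -0.15 without 964950 and 964952. With each library left out, Col1a1 was at -0.19 to 0.013 and Pecam1 at -0.017 to 0.072. Calls lost in some settings were those of Muc2, Ang4, Cdx1, Cdx2, Sox9, Rbp2, Aqp8 (DESeq2, 3.92, adjusted p = 0.0644), Igf2bp3, 4930463O16Rik and Rmrp. Igf2bp3 lost its call without colon library 964932 (-0.92), 964933 (-0.96) or 964934 (-0.94), and Cyp2c55 was called higher in colon without small intestine library 964948 (2.84). Leaving out 1 library also moved some small list counts by over 1.5 times. Calls higher in colon went from 2 to 1 for claudins (any library but 964934, 964947 and 964948) and drug-metabolizing enzymes (964933 or 964937), from 1 to 0 for neurons and glia (964932, 964935, 964937, 964946, 964949 or 964951) and pan-epithelial genes (964936, 964950 or 964952), and from 1 to 2 for vitamin uptake (964934 or 964947). Calls higher in small intestine went from 2 to 1 for goblet cell genes (964933, 964946 or 964952) and iron and calcium genes (964934 or 964952), from 1 to 0 for short-chain fatty acid genes (964933, 964935 or 964936) and from 1 to 2 for smooth muscle (964935, 964949 or 964950). Without 964946, goblet cell genes (3 to 6) and gasdermins (1 to 3) gained colon calls, microbial sensors gained (3 to 5) and neurons and glia lost (3 to 1) small intestine calls. Ratios of genes with 1 to 3 counts in a tissue were also computed without each library in turn, chosen after seeing the data, and those that rest on 1 library are given beside the genes. Leaving out a library with 1 of 2 such counts raised the ratio of Hoxd13 to 2240-fold (95% counting interval 402 to 88600) without 964949 and 2200-fold (95% counting interval 394 to 86800) without 964952, of Hottip to 4190-fold (95% counting interval 751 to 165000) without 964947 and 4260-fold (95% counting interval 764 to 168000) without 964949, and of Slc5a12 to 1380-fold (95% counting interval 247 to 54500) without 964932 and 1350-fold (95% counting interval 242 to 53400) without 964936. The causes were not tested. At these depths, genes with under 10 counts in most libraries could not be compared.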

Other observations

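The 4 genes called in opposite directions in the 2 genotypes were named after their values were seen. Rmrp and Rpph1, the RNA parts of the RNase MRP and RNase P enzymes, were higher in small intestine in WT (-1.43 ± 0.46 (SE, adjusted p = 0.0196) and -1.62 ± 0.39 (SE, adjusted p = 0.00381)) and higher in colon in Btnl2-KO tissue (1.72 and 1.32), and their interactions were not called (adjusted p = 0.253 and 0.149, edgeR quasi-likelihood test). Rmrp was at 0.992, 1.16 and 2.14 CPM in WT colon and 0.680, 3.14 and 6.71 CPM in WT small intestine, and the WT groups overlapped for both genes. The other 2, Igf2bp3 and 4930463O16Rik, were called for the interaction.

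Some genes of gut regions did not have enough counts in 6 libraries and were not tested. Hoxd12 was at 0.238, 1.08 and 1.31 CPM in colon and 0 in all small intestine libraries. Scnn1g, a subunit of the epithelial sodium channel, was at 0.0596, 2.46 and 11.4 CPM in colon and 0, 0 and 0.115 CPM in small intestine, and the groups overlapped. Gip, a hormone of the upper small intestine, was at 0.105, 0.978 and 18.5 CPM in small intestine, highest in library 964950, with 1 count in all colon libraries. Hoxc10 was at 0, 0.467 and 2.89 CPM in small intestine and 0 to 0.0596 CPM in colon.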
